A study of Homo sapiens with 2 samples.

Results

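Oncofetal genes are switched on in the fetal liver, many of them are largely silent in adult hepatocytes, and they are high in many liver cancers. The group was set by gene symbol as 10 genes: AFP, GPC3, IGF2, H19, IGF2BP1, IGF2BP2, IGF2BP3, LIN28B, DLK1 and PEG10. Of these, 9 had at least 1 probe with that symbol, 13 probes in all out of 29187 on the array, and IGF2 had none under its own symbol. Values came from Hep3B, an established human hepatocellular carcinoma cell line, by the labels of both samples. The extraction text in those labels describes frozen liver tissue instead of cells, a mismatch that the files do not settle. Wells received 90 pmol of an inhibitor of miR-19b (anti-miR-19b) or 90 pmol of control with a lipid transfection reagent, and RNA was taken 24 h after transfection. In the series each condition has 1 sample on Human OneArray, called an array below. It gives no replicate values, so no test was possible and every value below describes these 2 arrays. A supplement of the study prints P-values, and how many readings lie behind each deposited value was not stated. A cell line grown in culture has no surrounding liver tissue, and the mature microRNA itself was not read by these arrays. Its host transcript MIR17HG had an intensity of 763 with anti-miR-19b and 434 with control, which does not measure how far miR-19b was inhibited.

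The proteins of this group act at several points of fetal growth. AFP is the main plasma protein of the fetus and a serum marker of liver cancer, and GPC3 is a cell surface proteoglycan used to tell cancer from benign liver nodules. IGF2 is a fetal growth factor. H19 is a noncoding RNA from the neighbouring gene, and both are imprinted, H19 being read from the maternal and IGF2 from the paternal chromosome. DLK1 and PEG10 are imprinted genes read from the paternal chromosome. LIN28B blocks the maturation of the let-7 microRNAs, which in turn repress LIN28B itself and other fetal genes, and IGF2BP1, IGF2BP2 and IGF2BP3 bind messenger RNAs, that of IGF2 among them, and affect their stability and translation.

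The microRNAs that this comparison turns on are printed to set the inhibited one beside those tied to the group by its biology. They are mature sequences from RefSeq (GRCh38.p14), written 5′ to 3′, with the seed (bases 2 to 8), which pairs with target messages, in capitals.
hsa-miR-19b-3p: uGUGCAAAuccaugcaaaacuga
hsa-miR-19a-3p: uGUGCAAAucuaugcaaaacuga
hsa-miR-17-5p: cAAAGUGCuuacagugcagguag
hsa-let-7a-5p: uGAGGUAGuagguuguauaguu
hsa-let-7b-5p: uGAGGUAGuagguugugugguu
hsa-miR-675-5p: uGGUGCGGagagggcccacagug
hsa-miR-675-3p: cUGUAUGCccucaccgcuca
The inhibited miR-19b-3p is made from 2 genes, MIR19B1 (chr13:91351245-91351267, plus strand) and MIR19B2 (chrX:134169683-134169705, minus strand). Its seed is shared by 2 of the 2370 mature microRNAs in that table, miR-19b-3p and miR-19a-3p. The let-7 seed is shared by 11 and the miR-17-5p seed, of the same primary transcript as the MIR19B1 copy of miR-19b, by 8. MiR-675 (hairpin gene MIR675, 5p arm at chr11:1996800-1996822, minus strand) is cut from the H19 transcript. Messages were not searched for sites of any of these seeds.

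A log2 ratio, anti-miR-19b over control, was taken at the 26186 probes above 0 on both arrays, and its median was 0.03. Probes with a mean level of 41.4 or more, the median over those probes, were called bright and the others dim. The spread of the ratio, 0.5 times the distance between its percentiles 16 and 84, was 0.26 at bright and 0.87 at dim probes. As the series gives no replicate error, the place of each ratio is given as its percentile in the 500 probes of most similar mean level. Of 15 hepatocyte lineage markers 15 were bright, with summed intensities of 104506 with anti-miR-19b and 85094 with control. The apolipoprotein APOA2 made most of that gap, at 32084 with anti-miR-19b and 14603 with control. Of 14 markers of blood, vessel, stromal and other epithelial cells 5 were bright, and the sums were 702 and 796. In that list CD68 was the brightest and made the largest part of each sum, at 353 with anti-miR-19b and 418 with control. CD14 read 118 and 135, and HBB 46.0 and 41.9. Near the floor, KRT7 read -1.88 and 0.27 and COL3A1 -0.88 and 5.89 on the anti-miR-19b and control arrays. The part of these shifts in the ratios below was not tested.

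All 9 genes with a probe had a bright one. Of their 10 bright probes, 0 were over 1.5-fold apart between the arrays, where 3.47% of the 13093 bright probes of the array were (2.41% higher and 1.05% lower with anti-miR-19b). The 10 log2 ratios lay between -0.16 and 0.38, with 6 above 0 and 4 below. Their median was 0.10, beside 0.03 over all bright probes, of which 53.9% were above 0. The middle range of the nearest probes, percentile 16 to 84, held 9 of the 10, and the range from percentile 2.5 to 97.5 held all 10. AFP alone lay outside the middle range. A count of 0 in 10 is near that background share and is no result about these genes.

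**Figure D1:**
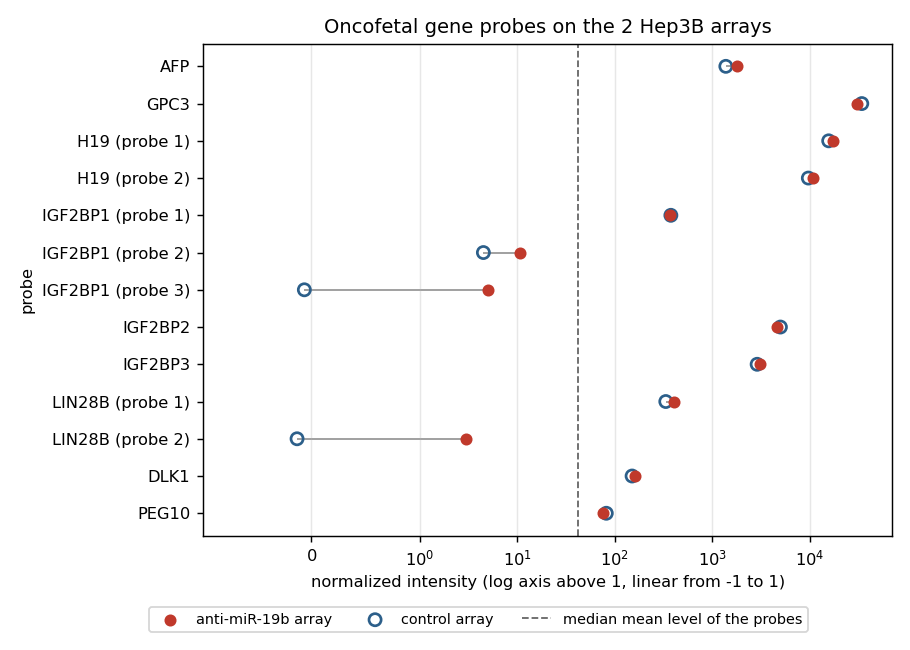
Normalized intensity of each of the 13 probes on the anti-miR-19b array (filled) and the control array (open), on an axis that is logarithmic above 1 and linear from -1 to 1, with 1 array per condition and no error bar. The 10 bright probes lie right of the dashed line at 41.4 with their symbols close together, and the wide gaps are at 3 probes of IGF2BP1 and LIN28B that read under 11 on both arrays.

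AFP had the highest bright ratio of the group. Its probe read 1783 with anti-miR-19b and 1371 with control, 1.30 times as high with the inhibitor, for a log2 ratio of 0.38. That stood at percentile 93.4 of the 500 probes nearest in level, whose middle range was -0.20 to 0.26 and whose upper limit at percentile 97.5 was 0.47. The ratio is thus beyond the middle range of like probes and inside their outer range. It was 0.35 to 0.38, at percentiles 93.2 to 94.5, over all scalings and numbers of neighbours tried. AFP rests on 1 probe, and the readings of a gene by 2 probes often lay as far apart. Across the 1629 genes with exactly 2 bright probes, the ratios of the pair differed by a median of 0.24, and in 29.0% of these genes by more than the whole AFP ratio. Among the 150 genes of that kind with both probes at 1000 or above, 16.7% did.

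ALB, the adult plasma protein whose gene stands next to AFP on chromosome 4, had 15550 with anti-miR-19b and 14382 with control (log2 ratio 0.11, percentile 75.4). AFM, the next gene on the other side and of the same family, was dim and read 41.5 and 35.6 (0.22, percentile 58.0). AFP and both genes beside it were thus higher on the anti-miR-19b array, ALB and AFM inside the middle range of probes of like level.

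GPC3, the surface proteoglycan, was the brightest probe of the group and brighter than 99.9% of all probes, though brightness also depends on the probe and does not rank transcripts. It read 30459 with anti-miR-19b and 33954 with control, for a log2 ratio of -0.16 at percentile 21.6. This was the lowest ratio among the bright probes of the group and within the middle range of its neighbours, -0.18 to 0.16. Being so near the top of the array, GPC3 had few brighter probes to be ranked with, 31 of its 500 neighbours. On the X chromosome the next measured genes beyond GPC3 on the side of MIR19B2 were PHF6, at 0.13 over 3 probes, and HPRT1, at 0.08 at 1 probe.

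H19 was read by 2 bright probes that gave nearly the same ratio. One read 17083 with anti-miR-19b and 15541 with control (log2 ratio 0.14, percentile 81.0). The other read 10663 and 9612 (0.15, percentile 81.4). The 2 ratios differed by 0.01, a gap as small or smaller in 3.01% of the 1629 genes with 2 bright probes and in 5.33% of the 150 with both probes at 1000 or above. Probes of the same gene on the same arrays share the RNA and the hybridization, and do not stand in for replicates. Each ratio was just inside the middle range of probes of like level, which ended at 0.16 and 0.17.

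IGF2 could be followed only through INS-IGF2, a readthrough gene that contains the exons of IGF2, so that its probes may not tell these genes apart. The bright probe of INS-IGF2 read 3077 with anti-miR-19b and 3859 with control, for a log2 ratio of -0.33 at percentile 4.6. The other probes of INS-IGF2 were not bright, at 1.91 and 8.70 and at 0 and 10.5, the latter with no ratio. All 3 were lower with anti-miR-19b, those that were not bright at levels where ratios scatter widely. INS, the insulin gene of the same locus, had -0.36 at its bright probe (169 with anti-miR-19b and 217 with control) and 0.54 at its dim one (24.8 and 17.0). The antisense gene IGF2-AS was dim, with 11.5 and 8.71. At this imprinted locus on chromosome 11 the bright H19 probes were therefore higher and the bright INS-IGF2 probe lower on the anti-miR-19b array. No test of that difference is possible with 1 array per condition.

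DLK1, a membrane protein related to NOTCH ligands and abundant in fetal hepatoblasts, read 161 with anti-miR-19b and 150 with control. Its log2 ratio was 0.10, at percentile 62.0. MEG3, the maternal noncoding RNA of the same imprinted domain on chromosome 14, was dim at 19.6 and 21.2 (-0.11). RTL1, a paternally read neighbour, had 88.4 and 82.4 (0.10). None of the 3 differed by more than the middle range of probes of like level.

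PEG10, a protein derived from a retrotransposon and needed in the placenta, had the dimmest of the bright probes. It read 74.8 with anti-miR-19b and 81.6 with control, for a log2 ratio of -0.13 at percentile 31.0. SGCE, the imprinted gene next to it on chromosome 7, was read by 2 bright probes of opposite sign. These were 382 and 430 (-0.17) and 352 and 279 (0.33) on the anti-miR-19b and control arrays. That gap within a single gene is wider than the PEG10 ratio.

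LIN28B, the inhibitor of let-7 maturation, had the next highest ratio after AFP. Its bright probe read 406 with anti-miR-19b and 332 with control, for a log2 ratio of 0.29 at percentile 83.0, just under the 0.30 at which the middle range of its neighbours ended. The other LIN28B probe read 2.97 with anti-miR-19b and -0.13 with control. No ratio can be taken of it, since a value below 0 has no logarithm.

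The 3 IGF2BP proteins are close paralogs, of which IGF2BP1 and IGF2BP3 are the fetal ones and IGF2BP2 is also found in adult tissue. IGF2BP1 read 369 with anti-miR-19b and 375 with control at its bright probe (log2 ratio -0.02, percentile 40.0). IGF2BP2 read 4591 and 4974 (-0.12, percentile 30.4). IGF2BP3 read 3091 and 2871 (0.11, percentile 69.6). The paralogs lay on both sides of 0, each inside the middle range of its neighbours.

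IGF2BP1 had a further pair of probes near the floor of the array. One read 10.7 with anti-miR-19b and 4.49 with control, for a log2 ratio of 1.25, the only probe of the group over 1.5-fold apart. Among all 26186 probes 25.7% were over 1.5-fold apart (13.8% higher and 12% lower), and among dim ones 48% (25.1% higher and 22.9% lower). Of its 500 neighbours 130 were over 1.5-fold higher and 108 over 1.5-fold lower, and it ranked at percentile 92.4. The other read 4.97 and -0.065, with no ratio. With the dim probe included the mean of IGF2BP1 was 0.62, which the bright probe of the gene, at -0.02, did not share. The 3 probes of the group that were not bright, in IGF2BP1 and LIN28B, read higher on the anti-miR-19b array, at levels under 11 on both. Over the whole array fewer values were at or below 0 with anti-miR-19b (1650) than with control (1898). The share of all probes near the floor that read higher was not counted, so the shared direction of these 3 is no result about these genes.

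**Figure D2:**
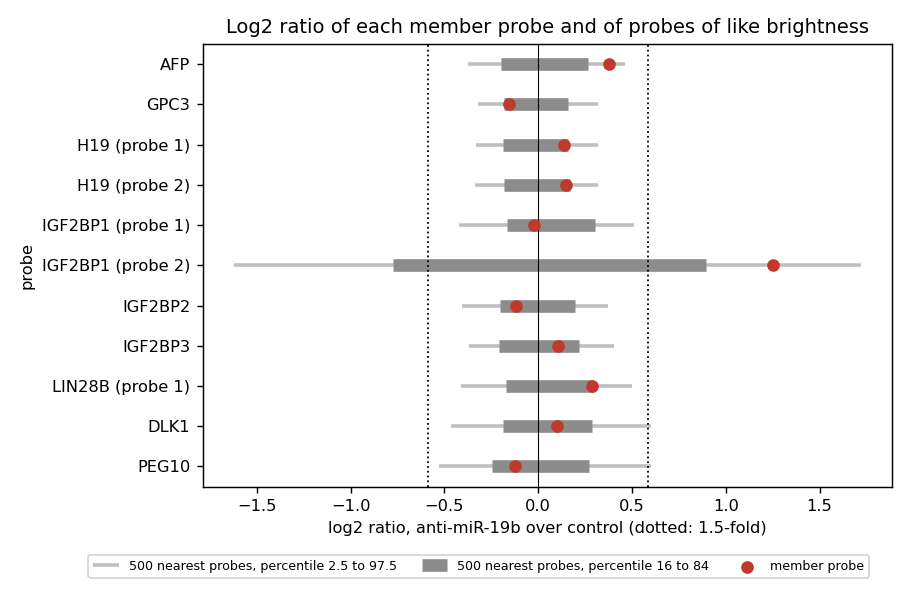
Log2 ratio of anti-miR-19b over control at the 11 member probes above 0 on both arrays (points), with the range of the 500 probes nearest in mean level from percentile 16 to 84 (thick bar) and 2.5 to 97.5 (thin bar); dotted lines mark 1.5-fold. AFP and the dim probe of IGF2BP1 lie outside the thick bar, and no point lies outside the thin one.

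**Figure D3:**
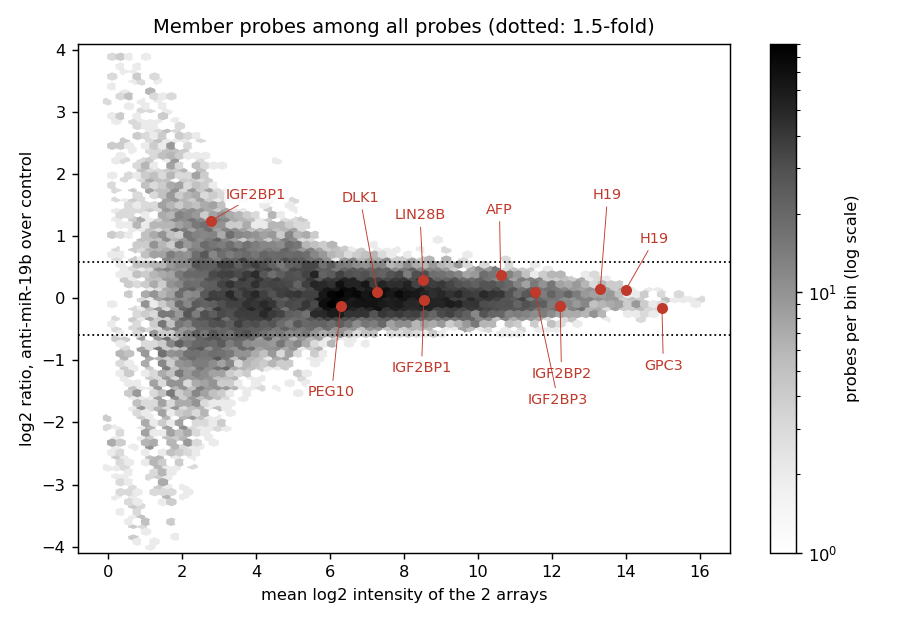
Log2 ratio against mean log2 intensity for 25729 probes, shaded by their number per bin, with the member probes as labelled points; 457 probes with a ratio beyond 4 either way or a mean log2 intensity below 0 fall outside the axes. The bright member probes lie within the dense band between the dotted 1.5-fold lines, and the dim IGF2BP1 probe lies in the wide fan at low intensity.

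Genes related to the group, and markers of cell types, were described as 10 lists, each by the number of genes over 1.5-fold and the median beside that of all genes. Over all 17438 genes with a ratio the median was 0.03 and 2162 were over 1.5-fold higher and 1887 lower, mostly at dim probes. Over bright probes alone the median of 9990 genes was 0.02, with 173 higher and 94 lower. The oncofetal genes had a median of 0.11 over all probes (9 genes, 1 higher and 0 lower, IGF2BP1 through its dim probe) and 0.10 over bright ones (0 higher and 0 lower). With INS-IGF2 counted for IGF2 and each of the 10 genes read at its brightest probe, the median was 0.04, beside 0.02 over all genes read that way.

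Of 19 genes of the albumin family and of known AFP regulators 13 were measured, and 1 was over 1.5-fold higher and 0 lower. The median was 0.04, and -0.06 over the 10 with bright probes. ZFHX3, a repressor of the AFP gene, was read by 2 bright probes, at 65.7 with anti-miR-19b and 115 with control (log2 ratio -0.81) and at 108 and 126 (-0.22). ZFHX3 also stands in a supplement of the study that was known when this list was drawn up. The intensities printed there are those of the probe at -0.81, so it is the same reading. ZHX2, another repressor of AFP, was the higher gene, at a dim probe (log2 ratio 0.77). FOXA3, a liver transcription factor, read 1670 and 2142 (-0.36, percentile 4.4), its relative FOXA1 had 0.22 and CEBPA 0.12. ZFHX3 and ZHX2 thus stood on opposite sides of 0, ZHX2 only at a dim probe, and a link of either to the AFP ratio was not tested.

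Among 14 measured glypicans and heparan sulfate genes (17 listed), 0 were over 1.5-fold higher and SULF2 was lower, at 2 dim probes of opposite sign. The median was -0.09 and, over the 13 with bright probes, -0.04. It was -0.027 with an offset of 50 added to every intensity and 0.00015 at the brightest probe of each gene, so that its sign depended on the setting. GPC2 had -0.38 (99.7 with anti-miR-19b and 129 with control) and FURIN, which cleaves the GPC3 precursor, -0.34. EXT2 and HS2ST1, enzymes that build heparan sulfate, had 0.30 each. GPC4, the neighbour of GPC3, read -5.98 and 2.88, with no ratio. The relatives of GPC3 showed no single direction.

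In the insulin-like growth factor axis 15 of 16 genes were measured, with a median of 0.20, 0.12 over the 11 with bright probes, and 0.063 with an offset of 50. The genes over 1.5-fold higher were IGFBP2 and IGFBP5, at dim probes, and the lower one was INS-IGF2, through its dim probe. IGF1R, the receptor that carries the IGF2 signal, read 717 with anti-miR-19b and 811 with control (-0.18) at its bright probe, and -0.22 at its dim one. INSR, the insulin receptor, read 218 and 325 (-0.57, percentile 1) at its bright probe and 1.45 at a dim one. INSR stands in the same supplement of the study as ZFHX3, among genes lowered over 1.5-fold. The intensities printed there are those of the bright probe here, whose ratio was just under 1.5-fold. The supplement prints a slightly lower log2 ratio, and how that ratio was calculated was not stated. IRS2, an adaptor of both receptors, had 0.14 at its bright probe and 0.92 at its dim one. IGFBP3, the chief carrier of insulin-like growth factors in plasma, was read by 2 bright probes of like ratio, 0.23 (13198 and 11288) and 0.30 (4869 and 3959). The highest bright ratio of this list was 0.42, at IGF1 (75.0 with anti-miR-19b and 56.1 with control, percentile 90.6).

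For the LIN28 and let-7 list 19 of 22 genes had a ratio, and 6 were over 1.5-fold higher and 2 lower, all of them without a bright probe. The median was 0.17 over all probes and -0.0015 over the 10 genes with bright ones, and 0.047 with an offset of 50. MYC, a let-7 target and growth regulator, read 189 with anti-miR-19b and 126 with control, for a log2 ratio of 0.58 just under 1.5-fold (percentile 97.2). CCND1, which encodes cyclin D1, read 1819 and 2423 (-0.41, percentile 2.6), and ARID3A had -0.36. THBS1 had 0.29. HMGA2, a chromatin protein of fetal tissue and a classic let-7 target, had 0.47 at one bright probe (201 and 145) and -0.06 at the other (107 and 112). Known let-7 targets therefore lay on both sides of 0 beside the LIN28B ratio of 0.29.

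Of 22 other imprinted genes 18 were measured, with 2 over 1.5-fold higher and 3 lower, all through dim probes. Over bright probes alone 0 were higher and 0 lower. The median was -0.07, 0.08 over the 11 with bright probes, and -0.014 with an offset of 50. SNURF, which shares its transcript with SNRPN, was read by 4 bright probes, at log2 ratios of 1.03, 0.57, 0.32 and 0.30. All 4 were higher with anti-miR-19b, and the widest ratio came from the dimmest, at 72.4 and 35.4. Their mean, 0.56, was under 1.5-fold. PEG3 had 0.34 at its bright probe, MEST -0.39 and GRB10 -0.27. NNAT had 0.15 at its bright probe and -1.92 at a probe near the floor (0.97 and 3.68).

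Among 12 measured partners and targets of the IGF2BP proteins (14 listed), CD44 was over 1.5-fold higher at a dim probe and 0 were lower. The median was 0.06, 0.14 over the 10 with bright probes, and 0.036 with median centring. MATR3, a nuclear RNA-binding protein, had 0.43 at its brighter probe (1718 with anti-miR-19b and 1272 with control) and 0.63 at the other (241 and 155). YBX1, which binds messenger RNA together with IGF2BP1, had 0.25. FSCN1, an actin-bundling protein, read 1514 and 1924 (-0.35, percentile 4.4), and SRF had -0.11.

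Of 12 NOTCH genes 11 were measured, with a median of -0.16 over all probes and over the 7 with bright probes, of which 1 was above 0. With an offset of 50 the median was -0.0504. NOTCH1 read 311 with anti-miR-19b and 390 with control (-0.33), DLL3 had -0.37 and -0.17 at its 2 bright probes, JAG1 had -0.03 and the target gene HES1 0.13. NOTCH4 was over 1.5-fold higher at a dim probe. Of 16 other embryonic and tumor antigens 12 were measured, with a median of -0.18, -0.13 over the 9 with bright probes, and -0.095 with an offset of 50. SALL4, a fetal transcription factor, had -0.18 at its bright probe (147 and 166), GOLM1, a Golgi protein and serum marker, -0.27 and -0.41 at 2 bright probes, PRAME 0.15 and CLDN6 0.03 at their bright probes. The highest bright ratio of the list was 0.21, at S100P. SALL4 and MAGEA4 were over 1.5-fold lower through dim probes.

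The 15 hepatocyte lineage markers had a median of 0.11, and 0.17 over bright probes alone. APOA2 was the gene over 1.5-fold higher (log2 ratio 1.14). APOA1 was read by 2 bright probes of opposite sign, -0.23 (10204 with anti-miR-19b and 11943 with control) and 0.05. FGG, a chain of fibrinogen, had 0.46 and 0.29 at its 2 bright probes, and AHSG, which encodes fetuin-A, read 2811 with anti-miR-19b and 3870 with control (-0.46, percentile 1). The AFP ratio of 0.38 was above the gene value of each of these markers other than APOA2, the nearest being FGG with a mean of 0.37. For markers of other cell types, of which 12 gave a ratio, the median was 0.02, and -0.20 over the 5 with bright probes. CD68 had -0.24, CD14 -0.20 and HBB 0.13, while MS4A1 had -0.23 at its bright probe.

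**Figure D4:**
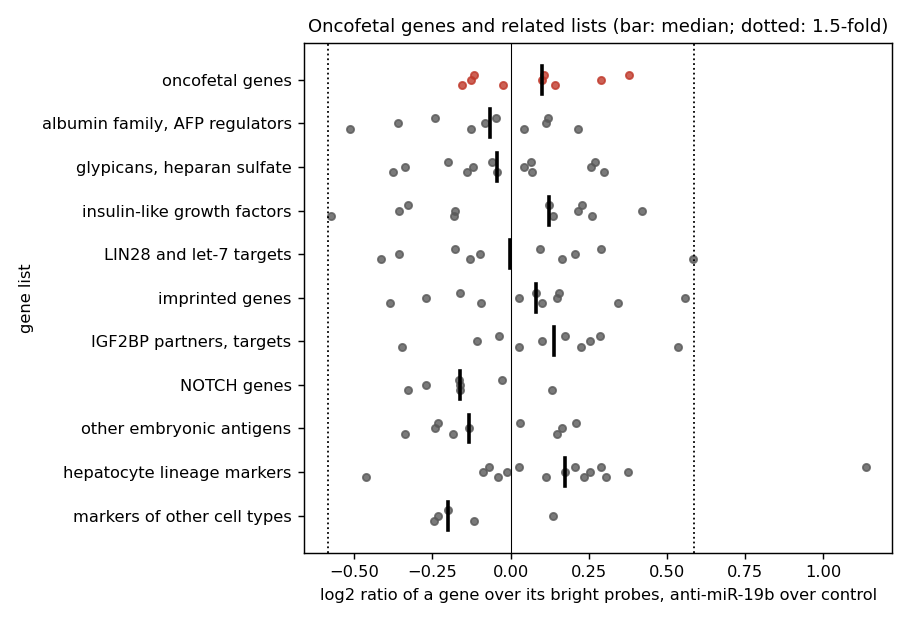
Log2 ratio of anti-miR-19b over control for each gene over its bright probes (points), for the oncofetal genes and the 10 other lists, with the median of a list as a bar and 1.5-fold as dotted lines. The oncofetal genes lie between -0.16 and 0.38, all inside the dotted lines, and APOA2 among the hepatocyte markers is the point beyond them at 1.14.

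The genes beside the members on their chromosomes were described in the same way, as the 2 nearest measured genes on each side. These were 37 genes, of which 19 had a bright probe. At the brightest probe of each, 0 were over 1.5-fold apart between the arrays, the ratios ran from -0.36 to 0.42 and the median was -0.05. PHF6 beside GPC3 gave the highest at its brightest probe (664 with anti-miR-19b and 497 with control), and INS beside IGF2 the lowest. The members' own bright ratios ran from -0.16 to 0.38.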

How the data were processed

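RNA of Hep3B cells given anti-miR-19b or control was labeled with 1 dye, hybridized to Human OneArray, scanned and quantified by the authors. The deposited values are normalized intensities on a linear scale, 1 per probe and array, some of them below 0. Their normalization and background correction were not given in the sources used here, and the labels name Cy5 as the dye where the methods of the study name fluorescein.

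The platform annotation gave 1 symbol for 25053 of 29187 probes, several for 0 and none for 4134. Symbols were updated by gene identifier, found for 24981 probes in RefSeq (GRCh38.p14), used for names, chromosome order and microRNA sequences. The log2 ratio was log2 intensity with anti-miR-19b minus log2 intensity with control, where both were above 0 (26186 probes), and genes were given the mean of their probes. Percentiles refer to the 500 probes nearest in mean log2 level, the probe itself left out. The 1.5-fold threshold is that of the study.

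Members and lists were chosen with earlier results of these data known. Every member was named. Of each list, the 2 highest and 2 lowest genes with a bright probe were named, ranked by the mean over all their probes, dim ones included, so that some were not the extremes at bright probes, and any gene with a bright probe over 1.5-fold apart. Other genes, among them ZHX2, AFM, GPC4, SULF2, IGFBP2, IGFBP3, IGFBP5, IGF1, GRB10, S100P, HMGA2, CD44, NOTCH4, MAGEA4, KRT7, COL3A1 and those beside the members on a chromosome, were chosen after their values were seen.

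Alternatives were median centring, quantile normalization, removal of a lowess trend (fraction 0.3), an offset of 50, a 2-fold threshold, 200 or 1000 neighbours, and genes taken from bright probes alone or from their brightest probe. INS-IGF2 in place of IGF2, the chromosome neighbours and the probe pairs were added after seeing the data. The number of arrays limits the precision, and with 1 array per condition no p-value was computed. The ratios, their percentiles and the 1.5-fold calls were tested on simulated data with less noise than the spread of these arrays. The offset, gene means, lists, probe pairs and chromosome neighbours were not part of that test. Python 3.11.15, numpy 2.4.6, pandas 2.3.3, statsmodels 0.14.6 and matplotlib 3.10.9 were used.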

Additional observations from a re-analysis of the deposited data

How the results depend on the processing

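No paired analysis was possible because the series holds 1 sample per condition. The 10 bright member probes kept the sign of their ratio and stayed within 1.5-fold under median centring, quantile normalization, removal of the lowess trend and an offset of 50. The median over the members, 0.11, was 0.08 to 0.10 under these and with bright probes alone or the brightest probe of a gene. It was 0.04 with INS-IGF2 counted for IGF2 and the brightest probe of a gene taken, 2 choices together in an alternative chosen after seeing the data. The count of member probes over 1.5-fold higher, 1 at the dim IGF2BP1 probe, was 0 with an offset of 50, with bright probes alone and at the brightest probe of a gene, since each removes dim probes or shrinks their ratios. With the offset the dim IGF2BP1 ratio was 0.16 in place of 1.25. With bright probes alone, list medians became -0.065 for the albumin family and AFP regulators, -0.0015 for the LIN28 and let-7 list, 0.082 for imprinted genes and -0.20 for markers of other cell types (-0.10 at the brightest probe of a gene). With an offset of 50, they became 0.063 for the insulin-like growth factor axis, 0.047 for the LIN28 and let-7 list and -0.0504 for NOTCH genes.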
